A study of Saccharomyces cerevisiae S288C with 72 samples.

Results

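The mitochondrial ATP synthase of budding yeast was followed here through 10 nuclear genes: 9 that encode subunits of the enzyme and INH1, which encodes its inhibitor protein. They were taken by name from a table of 5803 genes, and each of the 10 names matched an annotated nuclear protein-coding gene of the assembly R64. RNA-seq had been done on 3 strains of Saccharomyces cerevisiae in an S288C background: an nde1Δ nde2Δ ndi1Δ mutant, a cox4Δ mutant and wild type. NDE1 and NDE2 encode the NADH dehydrogenases on the outer face of the inner mitochondrial membrane and NDI1 the one on its inner face, so the first strain, called the NADH dehydrogenase mutant below, lacks the enzymes that pass electrons of NADH to ubiquinone, and the second lacks a subunit of cytochrome c oxidase. All cultures grew at 30 C and 200 rpm in 50 ml of yeast nitrogen base with ammonium and 2% glucose, held in 500 ml baffled flasks. Each strain had 1 library at each of 24 matched hours, the first at 0 h and the last at 58 h, so there were 72 libraries.

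ATP synthase uses the proton gradient that respiration builds across the inner membrane to make ATP. Its catalytic head, F1, is built of alpha (ATP1), beta (ATP2), gamma (ATP3) and delta (ATP16) subunits among others. A peripheral stalk of subunits b (ATP4), OSCP (ATP5), d (ATP7) and h (ATP14) holds the head still while the rotor turns, and subunit e (TIM11) in the membrane part joins enzymes into dimers that shape the cristae. When the gradient is lost the enzyme can run backwards and hydrolyse ATP, which the inhibitor protein of INH1 blocks. Genes for respiration in this yeast are repressed by glucose and are induced when cells turn to respiration, in part through the Hap2/3/4/5 complex, which binds CCAAT boxes.

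The sequence upstream of the members was searched for that box. CCAAT on either strand occurred within 500 bases before the start codon of 10 of 10 members, against 62.4% of 6000 genes searched the same way. The longer form ACCAATNA, which contains CCAAT, occurred on either strand in 5 of 10 members, against 8.6% of the 6000. The windows of those 5 are shown first, because they share the longer form, and then those of ATP1 and ATP16, the F1 genes with the largest and the smallest late difference from wild type in the mutants. Sequences come from the RefSeq assembly R64 (sacCer3) and read 5′ to 3′ on the strand of the gene. Capitals mark the motif, which in TIM11 and ATP1 lies on the other strand and is therefore printed as its reverse complement. The window of TIM11 also holds a CCAAT on the strand of the gene, 129 bases before the start codon, left in lower case. A match describes these letters and is not evidence of binding.
ATP3: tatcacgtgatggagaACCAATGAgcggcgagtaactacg
ATP4: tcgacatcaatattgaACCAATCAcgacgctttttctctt
ATP7: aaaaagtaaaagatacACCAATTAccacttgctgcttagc
ATP14: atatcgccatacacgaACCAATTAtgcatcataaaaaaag
TIM11: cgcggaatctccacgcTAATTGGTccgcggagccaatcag
ATP1: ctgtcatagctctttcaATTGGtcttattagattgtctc
ATP16: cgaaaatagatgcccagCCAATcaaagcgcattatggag

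The window of ATP3 (YBR039W) lies at chrII:315363-315402 on the plus strand, that of ATP4 (YPL078C) at chrXVI:408911-408950 on the minus strand and that of ATP7 (YKL016C) at chrXI:408144-408183 on the minus strand. The window of ATP14 (YLR295C) lies at chrXII:722548-722587 and that of TIM11 (YDR322C-A) at chrIV:1112415-1112454, both on the minus strand. The windows of ATP1 (YBL099W, chrII:36769-36807) and ATP16 (YDL004W, chrIV:442848-442886) lie on the plus strand. In the 4 members other than TIM11 with the longer form its first base lay 196 (ATP3), 190 (ATP4), 178 (ATP7) and 198 (ATP14) bases before the start codon, and in TIM11 it lay 145 bases before. No member overlapped another annotated gene.

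Levels are in TPM, a transcript unit that corrects for gene length and library size, rescaled so that nuclear genes sum to 1000000 in each library. They are shares of a library's RNA, so a gene can differ because other transcripts did, and the number of reads behind a value is not known. Hours were grouped into a late window of 18 to 58 h (9 hours), a middle window of 9 to 16 h (8 hours) and an early window of 0 to 8 h (7 hours). No replicate cultures are stated, so the hours of a window stand in for replicates. Between windows of a strain each p measures the spread between hours. Between strains, compared at matched hours, it measures how the difference between strains varies from hour to hour. Successive hours of a strain are not independent, which no p here takes into account. A gene was called, and is said to have risen or fallen, when limma gave it an adjusted p under 0.05 (Benjamini-Hochberg over 5721 genes) and a fold of at least 2. Each log2 difference is given with its standard error (SE) from the fit, and each mean level with the SD over hours. Counts of members at a p limit alone, without the fold limit, have no share of all genes beside them. The same holds where late values are said to overlap or not between strains. Such counts and ranges describe the members only. The deleted genes were checked in each library: NDE1, NDE2 and NDI1 did not exceed 3.24, 0.605 and 2.10 rescaled TPM in any of the 24 libraries of the NADH dehydrogenase mutant, against at least 104, 2.27 and 38.3 in wild type. COX4 did not exceed 5.23 rescaled TPM in the 24 cox4Δ libraries, against at least 321 in wild type. The sample names carry a letter that changes in each strain between 13 and 14 h, so the late and early windows also differ in that letter and its part in a difference between them cannot be told apart. Comparisons within one letter, 9 to 13 h with 0 to 8 h and 28 to 58 h with 18 to 24 h, are given as well.

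**Figure D1:**
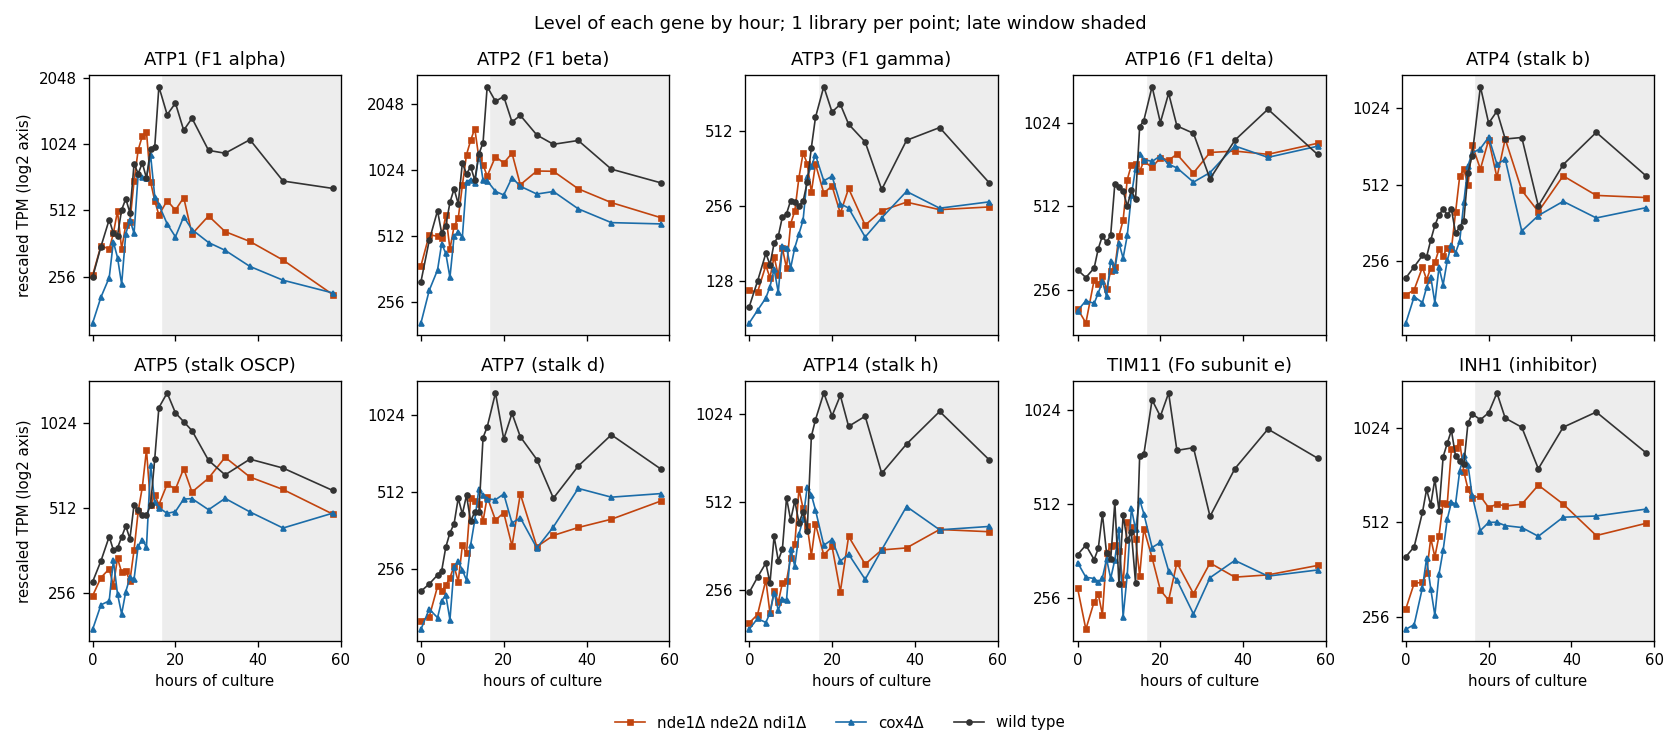
Level of each of the 10 genes (rescaled TPM, log2 axis) by hour of culture in the NADH dehydrogenase mutant (squares), the cox4Δ mutant (triangles) and wild type (circles), 1 library per point, late window shaded. In the early window none of the 10 was called between a mutant and wild type. In the late window ATP1, ATP14, TIM11 and INH1 lie lower in both mutants than in wild type without overlap, while ATP16 overlaps. The share of all genes without such overlap is not given, and the median gene was also lower late in both mutants (-0.65 and -0.61).

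In wild type the subunit genes rose together. Late against early levels differed by 1.12 to 1.64 on the log2 scale for the 9 subunit genes, all 9 of which rose, against 18.4% of all 5721 genes called higher. The median of the 10 members was 1.39, beside 0.05 for the median gene. ATP3, for the rotor subunit gamma, had the largest difference at 1.64 (SE 0.20, limma adjusted p = 1.55e-10), with 519 ± 154 rescaled TPM late and 164 ± 43.3 early (SD, n = 9 and 7 hours). ATP14, for stalk subunit h, rose by 1.59 (SE 0.16, adjusted p = 4.04e-13) and TIM11 least, by 1.12 (SE 0.17, adjusted p = 3.82e-08). INH1 stood at 1051 ± 166 rescaled TPM late and 553 ± 110 early, a log2 difference of 0.93 (SE 0.14, adjusted p = 2.59e-08) that stayed under the 2-fold limit.

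In the mutants fewer members passed both limits, and the differences between late and early levels ranged widely. In the NADH dehydrogenase mutant 3 of 10 members rose, against 12.2% of all genes called higher: ATP16 by 1.59 (SE 0.17), ATP4 by 1.25 (SE 0.21) and ATP5 by 1.08 (SE 0.18). In the cox4Δ mutant 6 of 10 rose, against 13.7% of all genes: ATP16 by 1.56 (SE 0.17), ATP4 by 1.39 (SE 0.21), ATP7 by 1.24 (SE 0.19), ATP3 by 1.15 (SE 0.20), ATP2 by 1.08 (SE 0.21) and ATP5 by 1.06 (SE 0.18). Without the hour 0, ATP2 and ATP5 were no longer called there. Between these and the lowest lay ATP2 (0.89), ATP3 (0.91), ATP7 (0.90), ATP14 (0.58) and INH1 (0.64) in the NADH dehydrogenase mutant and ATP14 and INH1 (0.78 each) in the cox4Δ mutant, with an adjusted p under 0.05 but not past the 2-fold limit. Lowest were ATP1, with 0.14 (SE 0.23) in the NADH dehydrogenase mutant and 0.37 (SE 0.23) in the cox4Δ mutant, and TIM11, with 0.14 (SE 0.17) and 0.03 (SE 0.17) in the same order of strains. The medians of the 10 members were 0.90 and 1.07 in these strains, while the median gene lay at -0.71 and -0.54. With median-of-ratios scaling, which puts the median gene near 0, 8 of 10 members were called higher in each mutant, against 22.3% of all genes in the NADH dehydrogenase mutant and 21.9% in the cox4Δ mutant, the exceptions being ATP1 (0.90 and 0.95) and TIM11 (0.90 and 0.61).

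**Figure D2:**
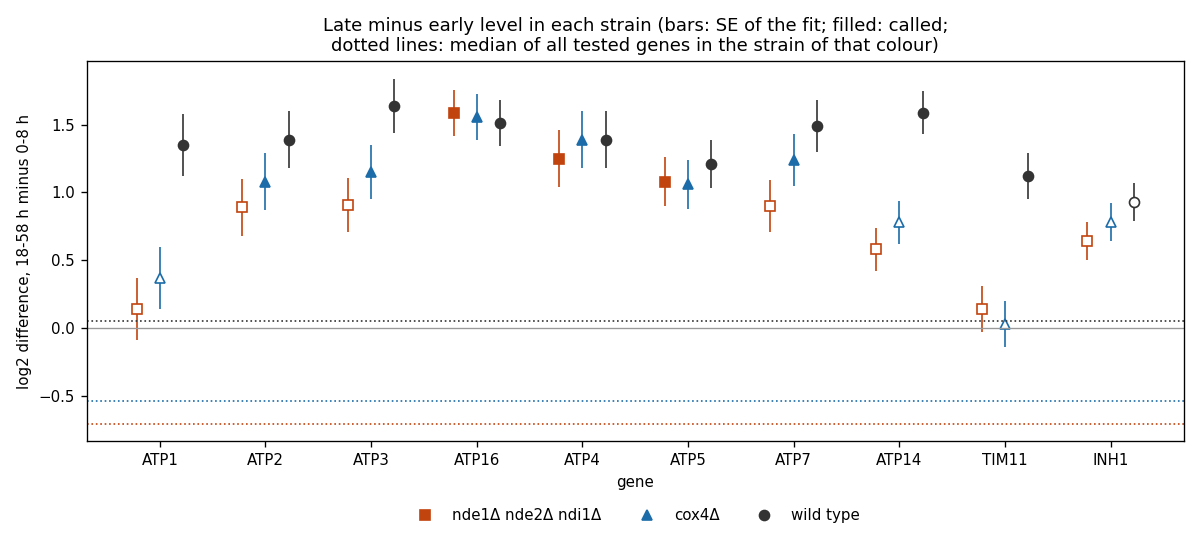
Log2 difference between the late and early windows for each gene in the NADH dehydrogenase mutant (squares), the cox4Δ mutant (triangles) and wild type (circles), with the SE of the fit, filled where called, and dotted lines at the median of all tested genes in each strain. ATP16, ATP4 and ATP5 lie between 1.06 and 1.59 in every strain, while ATP1 and TIM11 lie between 0.03 and 0.37 in the mutants and at 1.35 and 1.12 in wild type.

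Among the F1 genes, ATP1 and ATP16 went apart in the mutants. ATP1, for the alpha subunit, had a lowest, median and highest late level of 212, 409.8 and 585 rescaled TPM in the NADH dehydrogenase mutant, of 216, 366 and 479 in the cox4Δ mutant and of 644, 1073 and 1574 in wild type. Every late hour of either mutant was thus below every late hour of wild type. How many of all genes show such a separation is not given. The log2 difference from wild type was -1.35 (SE 0.15, limma adjusted p = 4.96e-11) in the NADH dehydrogenase mutant and -1.61 (SE 0.15, adjusted p = 4.53e-13) in the cox4Δ mutant, and ATP1 was lower at 9 of 9 hours in each. ATP16, for the delta subunit at the foot of the rotor, had 675, 788 and 863 rescaled TPM (lowest, median and highest) late in the NADH dehydrogenase mutant, 626, 742 and 844 in the cox4Δ mutant and 642, 997 and 1381 in wild type. These ranges overlapped. The log2 difference of ATP16 from wild type was -0.36 (SE 0.12, adjusted p = 0.00593) in the NADH dehydrogenase mutant and -0.41 (SE 0.12, adjusted p = 0.00184) in the cox4Δ mutant, and at 58 h both mutants were above wild type, at 863 and 842 against 787 rescaled TPM.

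ATP2, for the catalytic beta subunit, was the most abundant member in every strain and window and stood between these. Its late level was 957 ± 204.5 rescaled TPM in the NADH dehydrogenase mutant, 766 ± 123 in the cox4Δ mutant and 1558 ± 451 in wild type (SD, n = 9 hours each). The log2 differences of ATP2 from wild type were -0.68 (SE 0.13, adjusted p = 1.25e-05) and -0.98 (SE 0.13, adjusted p = 8.18e-09) for the NADH dehydrogenase and the cox4Δ mutant, neither past the 2-fold limit. In the cox4Δ mutant ATP2 was called without the hour 22, 32, 46 or 58. Over the hours left out its difference there ran from -1.03 to -0.92. ATP3, the least abundant member in every strain and window, lay at -0.93 (SE 0.12) and -0.91 (SE 0.12) for the same mutants. The difference of ATP1 from wild type was thus the largest of the 4 F1 genes in each mutant. Whether it differs from that of the other 3 was not tested.

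In the peripheral stalk ATP14 departed from ATP4 and ATP5 over the late window as a whole. Whether its difference from wild type differs from theirs was not tested. ATP14 had 252, 356 and 412 rescaled TPM late (lowest, median and highest) in the NADH dehydrogenase mutant, 278, 364 and 494 in the cox4Δ mutant and 642, 1009 and 1213 in wild type, with no overlap of either mutant with wild type. ATP14 fell relative to wild type by 1.41 (SE 0.14, limma adjusted p = 1.46e-12) and by 1.34 (SE 0.14, adjusted p = 7.85e-12) on the log2 scale. ATP4, for subunit b of the same stalk, had 402, 548 and 776 rescaled TPM late in the NADH dehydrogenase mutant, 337, 441 and 788 in the cox4Δ mutant and 423, 786 and 1246 in wild type, ranges that overlapped. ATP4 lay at -0.46 (SE 0.12) and -0.59 (SE 0.12) against wild type, and ATP5, for OSCP, at -0.44 (SE 0.13) and -0.75 (SE 0.13). ATP7, for subunit d, had 392 ± 65.5 rescaled TPM late in the NADH dehydrogenase mutant, 441 ± 74.9 in the cox4Δ mutant and 804 ± 231 in wild type (SD, n = 9 hours each). It stayed just under the 2-fold limit in the NADH dehydrogenase mutant (adjusted p = 5.13e-09) and lay at -0.83 (SE 0.13) in the cox4Δ mutant.

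TIM11, for the dimer subunit e, and INH1 completed the set. TIM11 had 252, 304 and 345 rescaled TPM late (lowest, median and highest) in the NADH dehydrogenase mutant, 228, 313 and 386 in the cox4Δ mutant and 467, 775 and 1159 in wild type. No late hour of a mutant reached the lowest of wild type, and TIM11 fell by 1.42 (SE 0.15, limma adjusted p = 1e-11) and by 1.36 (SE 0.15, adjusted p = 3.27e-11) relative to wild type. INH1 had 465, 584 and 672 rescaled TPM late in the NADH dehydrogenase mutant, 462, 512 and 564 in the cox4Δ mutant and 758, 1085 and 1320 in wild type, again without overlap. Its log2 difference from wild type was -0.86 (SE 0.11, adjusted p = 3.46e-09) in the NADH dehydrogenase mutant, under the 2-fold limit, and INH1 fell by 1.03 (SE 0.11, adjusted p = 4.44e-11) in the cox4Δ mutant, a call that was lost without the hour 22, at -0.98.

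In all, 3 of 10 members fell relative to wild type in the late NADH dehydrogenase mutant (ATP1, ATP14 and TIM11), against 29.4% of all genes called lower, and 4 of 10 in the late cox4Δ mutant (the same 3 and INH1), against 26.3%. These shares are near the background. The median of the members was -0.90 and -0.95, beside -0.65 and -0.61 for the median gene. With median-of-ratios scaling 0 of 10 were called in either mutant, against 6.71% and 6.76% of all genes called lower, and calls over all genes moved from mostly lower (155 higher and 1681 lower in the NADH dehydrogenase mutant, 141 and 1504 in the cox4Δ mutant) to near balance (522 and 384, 458 and 387). ATP1 then stood at -0.64 and -0.95, ATP14 at -0.70 and -0.68 and TIM11 at -0.71 in both, while ATP16 turned to 0.35 and 0.25 and ATP4 to 0.25 and 0.07. At an unadjusted p under 0.05 without that scaling 10 of 10 members passed in each mutant. No share of all genes at that limit is given, and the median gene was lower too. This count is therefore not read as particular to the members. The count of called members for the NADH dehydrogenase mutant with rescaled TPM was 5 without the hour 32 or without the hour 58, with ATP3 and ATP7 added. ATP7 alone was added without the hour 20, 24 or 38. Both comparisons use the same wild-type libraries, so they are not independent of each other.

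**Figure D3:**
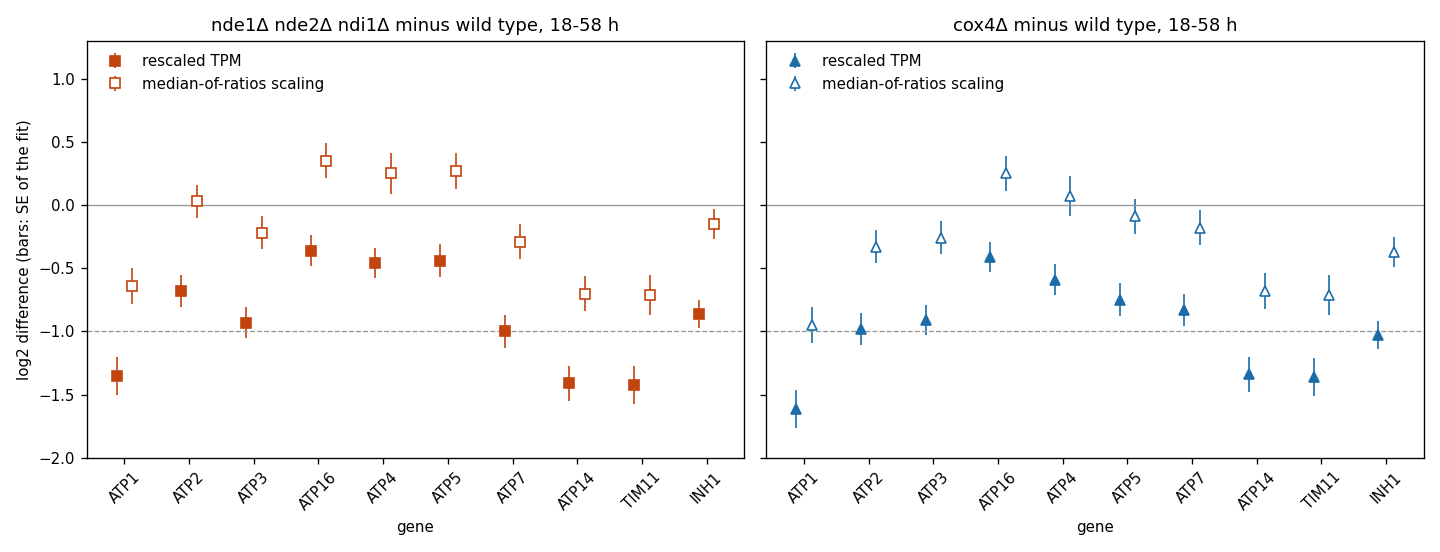
Log2 difference of the late window between each mutant (NADH dehydrogenase mutant left, cox4Δ right) and wild type for each gene under rescaled TPM (filled) and median-of-ratios scaling (open), with the SE of the fit and a dashed line at the 2-fold limit. ATP1, ATP14 and TIM11 are lowest and ATP16 and ATP4 among the highest, and median-of-ratios scaling shifts all members of a comparison upward by about the same amount, which leaves their order as it was.

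The test of the change itself, late minus early in a mutant minus the same in wild type, named fewer genes. In the NADH dehydrogenase mutant 2 of 10 members were called lower, ATP1 at -1.21 (SE 0.23, limma adjusted p = 1.23e-05) and ATP14 at -1.02 (SE 0.21, adjusted p = 4.56e-05), against 33.5% of all genes. In the cox4Δ mutant 1 of 10 was called lower, TIM11 at -1.09 (SE 0.22, adjusted p = 6.32e-05), against 26.1% of all genes. ATP1 lay at -0.98 (SE 0.23) there, and TIM11 at -0.98 (SE 0.22) in the NADH dehydrogenase mutant. ATP14 was no longer called in the NADH dehydrogenase mutant without the hour 4, 18, 22 or 28, ATP1 was called in the cox4Δ mutant without the hour 4, 7, 22 or 28, and TIM11 was called in the NADH dehydrogenase mutant without the hour 2, 6, 24, 32, 38 or 58. The counts thus ran between 1 and 3 in the NADH dehydrogenase mutant and between 1 and 2 in the cox4Δ mutant. ATP16 stood at 0.08 (SE 0.18) and 0.05 (SE 0.18), less than 1 SE away from 0. With median-of-ratios scaling 0 of 10 passed both limits in either mutant, against 7.66% and 7.67% of all genes called lower. ATP16 then stood at 0.86 (limma adjusted p = 0.000711) and 0.66 (adjusted p = 0.00872), and the median gene, at -0.72 and -0.56 otherwise, lay near 0.

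No member was called between the mutants late. Of 10 members, limma called 0 between the cox4Δ and the NADH dehydrogenase mutant, against 0.297% of all genes in either direction, and 2 had an unadjusted p under 0.05. Log2 differences ran between -0.31 (ATP2, SE 0.13, and ATP5, SE 0.13) and 0.16 (ATP7, SE 0.13). ATP2 was lower in the cox4Δ mutant at 9 of 9 late hours and ATP5 at 8 of 9.

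No member was called in the early or the middle window. In the early window 0 of 10 members were called in the NADH dehydrogenase mutant against wild type, beside 0.245% of all genes in either direction, and 7 had an unadjusted p under 0.05. The median of the members was -0.36. INH1 had the largest difference, -0.57 (SE 0.13, adjusted p = 0.00995), with 371 ± 71.0 rescaled TPM in the mutant and 553 ± 110 in wild type, and was lower at 7 of 7 hours. In the early cox4Δ mutant 0 of 10 passed both limits, beside 0.769% of all genes, although 8 of 10 had an adjusted p under 0.05 and each of the 10 was below wild type at 7 of 7 hours, and their median was -0.59. Under the alternative scaling by median of ratios, early medians were -0.43 and -0.54 in these mutants, further from 0 than the late ones of -0.19 and -0.29. With rescaled TPM, INH1 in the cox4Δ mutant was again first, at -0.87 (SE 0.13, adjusted p = 6.42e-06), with 302 ± 59.4 rescaled TPM, followed by ATP2 at -0.67 (SE 0.15, adjusted p = 0.00485). The middle window also gave 0 of 10 calls in each mutant, beside 4.46% of all genes for the NADH dehydrogenase mutant and 2.83% for the cox4Δ mutant, with 3 and 9 members at an unadjusted p under 0.05. The limma fit without trend and robust moderation also called 0 in each of these comparisons.

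The middle window hides a peak that came at a different hour in each strain. ATP1 was highest at 13 h in the NADH dehydrogenase mutant (1165 rescaled TPM), at 14 h in the cox4Δ mutant (912) and at 16 h in wild type (1871). ATP2 was highest at the same 3 hours, at 1587, 1223 and 2466 rescaled TPM. The summed level of the 9 subunit genes peaked at 6661 at 13 h in the NADH dehydrogenase mutant, at 5863 at 14 h in the cox4Δ mutant and at 11781 at 18 h in wild type. One hour after its peak ATP1 was at 689 in the NADH dehydrogenase mutant and at 592 in the cox4Δ mutant, the steepest step down of ATP1 between neighbouring samples in each. The first of these steps spans the change of letter in the sample names, and the second does not. In wild type the steepest step down of ATP1 ended at 46 h, with 696 against 1073 at 38 h. For orientation, HXT3, a low-affinity glucose carrier gene picked with its values known, was down to 232 rescaled TPM at 12 h in the NADH dehydrogenase mutant, to 62.7 at 14 h in the cox4Δ mutant and to 78.8 at 16 h in wild type.

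ATP16 and ATP4 did not share that course. ATP16 was highest at 58 h in the NADH dehydrogenase mutant (863 rescaled TPM), at 38 h in the cox4Δ mutant (844) and at 18 h in wild type (1381). ATP4 was highest at 24 h (776), 20 h (788) and 18 h (1246) in the same strains. ATP7 was also highest later, at 24 h (501), 38 h (527, beside 526.5 at 14 h) and 18 h (1245). In wild type ATP3, ATP5 and ATP14 were highest at 18 h too, and TIM11 and INH1 at 22 h. Each peak rests on 1 library.

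**Figure D4:**
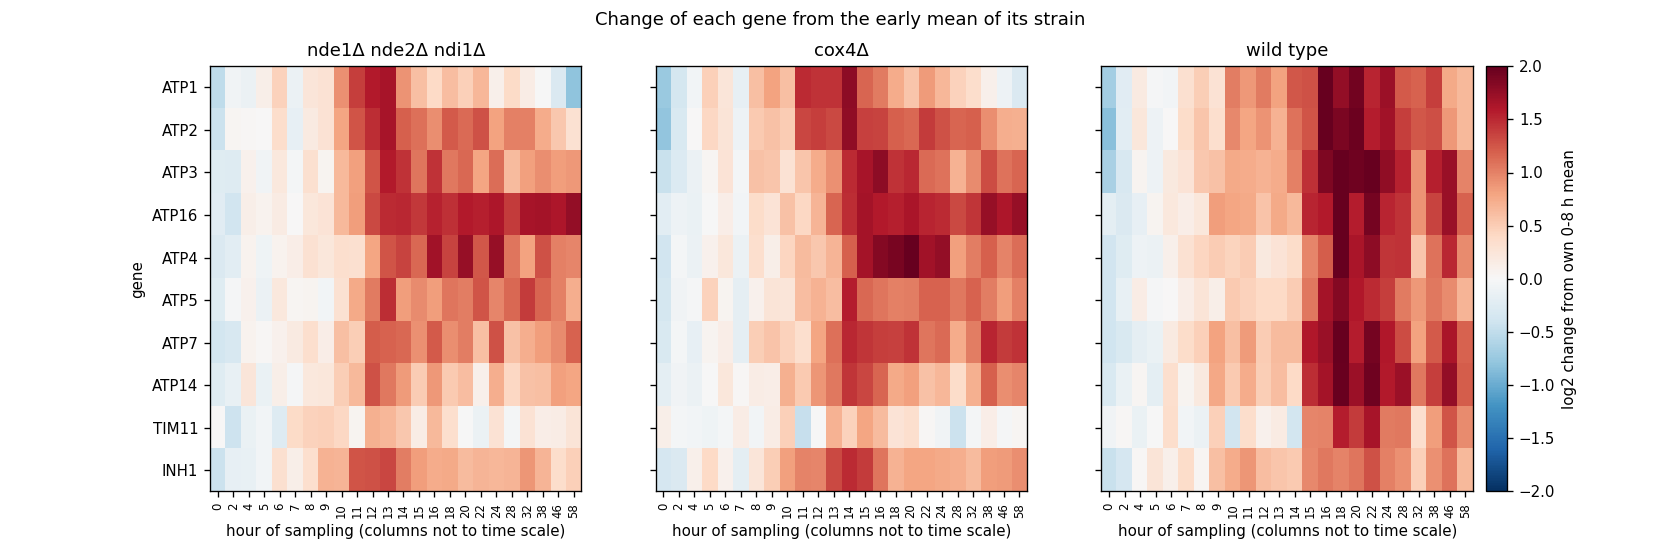
Log2 change of each gene from the 0 to 8 h mean of its own strain at every sampled hour (columns in order of time but not to scale; color scale ends at 2), in the NADH dehydrogenase mutant, the cox4Δ mutant and wild type. ATP1 and ATP2 are darkest at 13 h, 14 h and 16 h in these strains, and late in the mutants ATP1 and TIM11 are pale while ATP16 stays dark.

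The comparisons within one letter of the sample names gave the middle rise and the late course separately. At 9 to 13 h (5 hours) against 0 to 8 h, limma called 3 of 10 members higher in the NADH dehydrogenase mutant, beside 10.1% of all genes: ATP1 at 1.16 (SE 0.22), ATP2 at 1.09 (SE 0.21) and INH1 at 1.05 (SE 0.15). It called 2 of 10 in the cox4Δ mutant, beside 9.7% of all genes: ATP1 at 1.16 (SE 0.22) and ATP2 at 1.03 (SE 0.21). In wild type it called 0 of 10, beside 10.8% of all genes, with differences between 0.14 (TIM11) and 0.80 (ATP1) and 9 of 10 at an unadjusted p under 0.05. The counts in the mutants turned on single hours: 1 without the hour 12 or 13 and 5 without the hour 9 in the NADH dehydrogenase mutant, and 1 without the hour 0, 2, 11, 12 or 13 in the cox4Δ mutant. Whether these changes differ between strains was not tested.

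At 28 to 58 h (5 hours) against 18 to 24 h (4 hours) limma called 0 of 10 members in each strain, beside 1.73% of all genes in either direction in the NADH dehydrogenase mutant, 10.6% in the cox4Δ mutant and 0.734% in wild type. Unadjusted p under 0.05 were reached by 2, 2 and 9 members in these strains. In wild type all 10 members had a negative difference, between -0.69 (ATP1) and -0.28 (INH1). In the mutants ATP1 lay at -0.57 (SE 0.25) and -0.60 (SE 0.25) and ATP4 at -0.49 (SE 0.19) and -0.81 (SE 0.19), while ATP16 lay at 0.06 (SE 0.18) and 0.02 (SE 0.18). With median-of-ratios scaling, under which the median gene of the cox4Δ mutant no longer lies at 0.43, ATP1 (-1.08) and ATP4 (-1.30) were called lower in that mutant, against 4.11% of all genes.

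Ratios between genes of one library do not depend on how libraries are scaled. ATP1 over ATP2, the transcripts of the subunits that alternate around the F1 head, was 0.439 ± 0.0456 late in the NADH dehydrogenase mutant, 0.455 ± 0.0551 in the cox4Δ mutant and 0.70 ± 0.0379 in wild type (SD, n = 9 hours each). The late range was 0.341 to 0.48 in the NADH dehydrogenase mutant, 0.37 to 0.542 in the cox4Δ mutant and 0.647 to 0.766 in wild type, so neither mutant overlapped wild type. Early, the ratio was 0.738 ± 0.0564, 0.741 ± 0.0335 and 0.721 ± 0.0434 in the same strains (SD, n = 7 hours each), which lie within 1 SD of each other. In the NADH dehydrogenase mutant the ratio was 0.734 at 13 h and 0.594 at 14 h, a step that spans the change of letter. In the cox4Δ mutant it was 0.809 at 13 h, 0.746 at 14 h, 0.642 at 15 h and 0.592 at 16 h. In wild type it was 0.777 at 13 h and 0.805 at 14 h. Each of these values rests on 1 library, and the part of the letter in them was not tested. The lowest value of each mutant was its last, at 58 h.

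Of the other ratios some differed between the mutants and wild type and some overlapped. ATP16 over ATP1 was 2.02 ± 0.893 late in the NADH dehydrogenase mutant, 2.29 ± 0.838 in the cox4Δ mutant and 0.983 ± 0.314 in wild type, and at 58 h it reached 4.07, 3.91 and 1.22. The late ranges overlapped, since wild type reached 1.64 at 46 h. TIM11 over ATP4 was 0.567 ± 0.147, 0.637 ± 0.141 and 1.07 ± 0.117 late in the same strains, with highest values of 0.826 and 0.794 in the mutants and a lowest of 0.883 in wild type. Early, TIM11 over ATP4 was 1.20 ± 0.204, 1.64 ± 0.366 and 1.32 ± 0.284. ATP14 over ATP4, both of the stalk, was 0.659 ± 0.179, 0.776 ± 0.268 and 1.24 ± 0.148 late. Wild type went down to 0.973 at 18 h. The cox4Δ mutant overlapped it (up to 1.12 at 38 h), and the NADH dehydrogenase mutant did not (up to 0.887). In the cox4Δ mutant this ratio was lowest at 20 h (0.483) and was 1.01 at 58 h, beside an early mean of 1.13. In the NADH dehydrogenase mutant it was lowest at 22 h (0.46) and was 0.887 at 58 h, beside an early mean of 1.02. INH1 over ATP2, the inhibitor against its binding partner in the catalytic head, was 0.618 ± 0.106, 0.688 ± 0.158 and 0.717 ± 0.204 late, which overlapped widely. INH1 over ATP1 was 1.45 ± 0.427, 1.56 ± 0.54 and 1.03 ± 0.302, higher on average in the mutants but with overlap. ATP3 over ATP2 was 0.286 ± 0.0701, 0.357 ± 0.0841 and 0.341 ± 0.0815, which also overlapped widely. ATP14 over ATP7 was 0.906 ± 0.0973, 0.851 ± 0.0661 and 1.21 ± 0.143, with wild type down to 0.974, the NADH dehydrogenase mutant up to 1.03 and the cox4Δ mutant up to 0.942. These pairs were chosen with the values known and carry no test.

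**Figure D5:**
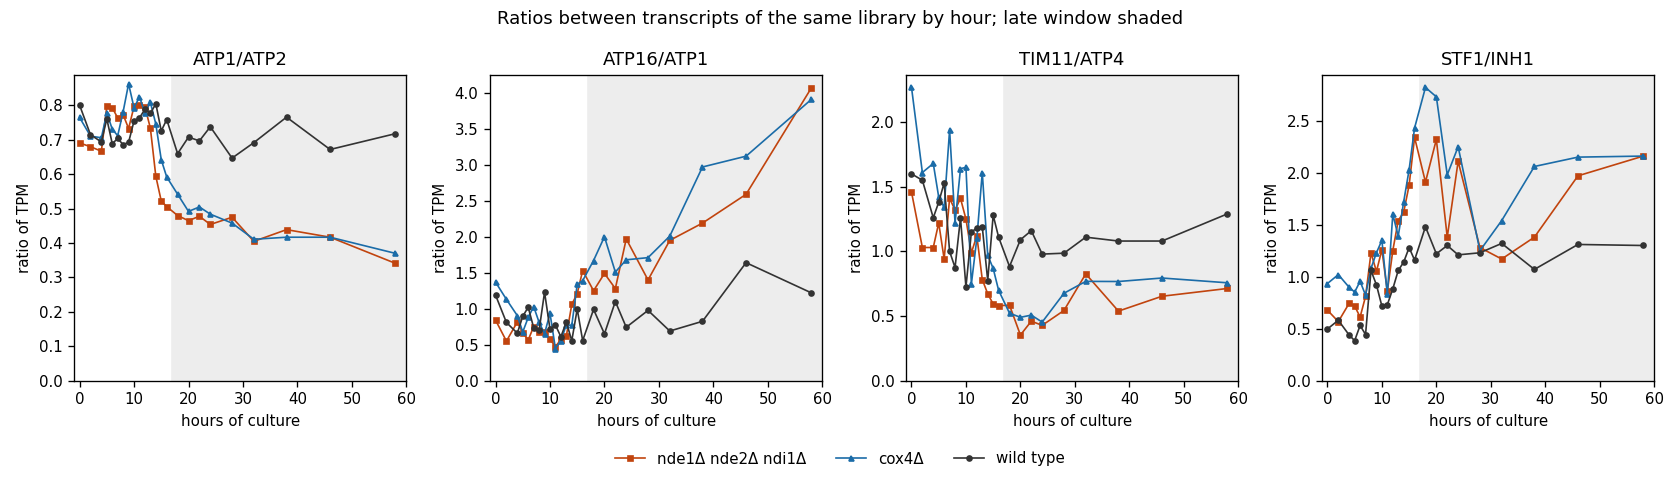
Ratio of TPM between transcripts of the same library by hour in the NADH dehydrogenase mutant (squares), the cox4Δ mutant (triangles) and wild type (circles), 1 library per point, late window shaded. ATP1 over ATP2 runs between 0.341 and 0.542 late in the mutants and between 0.647 and 0.766 in wild type, and ATP16 over ATP1 climbs to 4.07 and 3.91 in the mutants.

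The subunit genes also differed in how far apart their changes lay. The log2 changes of the 9 subunit genes from their own early means spanned a median of 1.67 over the 9 late hours of the NADH dehydrogenase mutant (1.13 to 2.56), 1.71 in the cox4Δ mutant (1.47 to 2.04) and 0.714 in wild type (0.553 to 0.998). The largest change belonged to ATP16 at 7 of 9 late hours of the NADH dehydrogenase mutant and at 5 of 9 of the cox4Δ mutant, and to ATP4 at the rest. The smallest belonged to ATP1 or TIM11 at each of those hours. Over all 24 hours the 45 pairwise Pearson correlations among the 10 members had a median of 0.753 in the NADH dehydrogenase mutant (lowest 0.24, ATP1 and ATP4), 0.799 in the cox4Δ mutant (lowest 0.199, ATP5 and TIM11) and 0.918 in wild type (lowest 0.623, ATP1 and TIM11). Successive hours of a strain are not independent points.

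Levels of the members can be ordered, since TPM are per length. In the early window of wild type ATP2 led with 593 ± 172 rescaled TPM, INH1 (553 ± 110) lay within its spread, and ATP3 came last with 164 ± 43.3 (SD, n = 7 hours). In the late windows ATP1 stood 6th of 10 in the NADH dehydrogenase mutant, 8th in the cox4Δ mutant and 2nd in wild type. ATP16 stood 2nd in both mutants, at 772 ± 56.1 and 745 ± 72.4 rescaled TPM, and 4th in wild type, at 1012 ± 237 (SD, n = 9 hours each). In wild type the late means from ATP1 (1089) down to ATP4 (791) were within 1 SD of their neighbours.

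The other nuclear subunit genes listed were ATP15, ATP17, ATP18, ATP19 and ATP20. Of these 5, 2 rose from early to late in the NADH dehydrogenase mutant, 2 in the cox4Δ mutant and 5 in wild type. Their medians were 0.79, 0.74 and 1.40, and 12.2%, 13.7% and 18.4% of all genes were called higher. Against late wild type 2 of 5 were lower in the NADH dehydrogenase mutant, beside 29.4% of all genes, and 4 of 5 in the cox4Δ mutant, beside 26.3%. With median-of-ratios scaling 1 of 5, ATP19, was lower in each, beside 6.71% and 6.76% of all genes. ATP19, for subunit k, which like subunit e belongs to the dimer interface, had 383 ± 78.8 rescaled TPM late in the NADH dehydrogenase mutant, 380.0 ± 70.0 in the cox4Δ mutant and 1602 ± 357 in wild type. Its log2 differences from wild type, -2.06 (SE 0.18, limma adjusted p = 1.3e-13) and -2.07 (SE 0.18, adjusted p = 1.3e-13), were larger than those of the other nuclear subunit genes named here, and it stayed called with median-of-ratios scaling (-1.35 and -1.41). ATP6, ATP8 and OLI1, the mitochondrially encoded subunits, were barely measured: the median of ATP8 was at the floor of 0.1 TPM in the late and early windows of each strain, and it was not tested. In the late cox4Δ mutant ATP6 had a lowest, median and highest of 1.39, 3.29 and 27.1 rescaled TPM and in late wild type 0.101, 0.717 and 1.99, and 2 of the 2 tested were called higher, against 2.46% of all genes.

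STF1 and STF2 encode factors linked to the inhibitor, STF1 a close relative of the inhibitor protein. Both rose from early to late in every strain. Of all genes 12.2% were called higher in the NADH dehydrogenase mutant, 13.7% in the cox4Δ mutant and 18.4% in wild type. In the same order, STF1 rose by 1.83 (SE 0.23), 1.91 (SE 0.23) and 2.18 (SE 0.23). STF2 rose by 3.46 (SE 0.35), 3.57 (SE 0.35) and 2.49 (SE 0.35). STF1 over INH1 was 1.74 ± 0.436, 2.10 ± 0.498 and 1.27 ± 0.113 late and 0.766 ± 0.22, 0.936 ± 0.0895 and 0.562 ± 0.229 early, in the same order of strains. STF2 over INH1 was 7.23 ± 1.97 and 8.42 ± 2.53 late in the mutants, with lowest values of 4.23 and 5.00, and 2.69 ± 0.459 in wild type, with a highest value of 3.72.

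Genes that supply the enzyme gave a mixed picture. Of 6 genes for adenylate and phosphate exchange 4 rose from early to late in each mutant. In wild type 5 rose and 1 fell. Over all genes 12.2% were called higher in the NADH dehydrogenase mutant, 13.7% in the cox4Δ mutant and 18.4% in wild type. In wild type 14.7% of all genes were called lower. PET9, for the main ADP/ATP carrier, had 892 ± 183 rescaled TPM late in the NADH dehydrogenase mutant, 629 ± 140.0 in the cox4Δ mutant and 2649 ± 462 in wild type, a fall relative to wild type of 1.58 (SE 0.15) and 2.08 (SE 0.15). MIR1, for the phosphate carrier, fell by 1.37 (SE 0.16) and 1.90 (SE 0.16). Of the 6 genes 2 were called lower late in each mutant, beside 29.4% and 26.3% of all genes. With median-of-ratios scaling PET9 and MIR1 both stayed called in the cox4Δ mutant and neither in the NADH dehydrogenase mutant. That scaling called 1 of the 6 higher in each, against 9.12% and 8.01% of all genes. In the NADH dehydrogenase mutant it was POR1 (1.13). With rescaled TPM POR1 (0.42, SE 0.12) and AAC3 (0.64, SE 0.20) lay above wild type there without being called. Of 15 tested assembly and expression factors 2 rose and 2 fell from early to late in the NADH dehydrogenase mutant. There 12.2% of all genes were called higher and 40% lower. In the cox4Δ mutant 3 rose and 2 fell, beside 13.7% of all genes called higher and 34.3% lower. In wild type 3 rose, beside 18.4% of all genes called higher. ATP23, for a protease and chaperone of Atp6, fell by 2.35 (SE 0.31) and 2.07 (SE 0.31) in the mutants and lay at -0.20 (SE 0.31) in wild type. Against late wild type 5 and 3 of the 15 were lower, beside 29.4% and 26.3% of all genes. With median-of-ratios scaling 2 and 3 of the 15 were lower, beside 6.71% and 6.76%. Among those lower with rescaled TPM was ATP10, for another Atp6 assembly factor. It fell by 1.52 (SE 0.24) and 1.74 (SE 0.24) and with median-of-ratios scaling stayed called only in the cox4Δ mutant.

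Respiratory complex genes and the Hap regulators were set beside the members. From early to late, 5 of 9 genes of complex III rose in the NADH dehydrogenase mutant, 6 in the cox4Δ mutant and 9 in wild type, with medians of 1.83, 1.56 and 1.61, and 7, 7 and 8 of 8 cytochrome oxidase genes rose, with medians of 1.61, 1.45 and 1.73. Over all genes 12.2%, 13.7% and 18.4% were called higher in these strains. With median-of-ratios scaling 8, 8 and 8 of 9 complex III genes and 8, 7 and 8 of 8 cytochrome oxidase genes were called higher, beside 22.3%, 21.9% and 17.5% of all genes. Against late wild type the medians were -0.18 and -0.27 for complex III and -0.18 and -0.39 for cytochrome oxidase, beside -0.90 and -0.95 for the ATP synthase members. With median-of-ratios scaling they were 0.53 and 0.39 for complex III, 0.52 and 0.27 for cytochrome oxidase and -0.19 and -0.29 for the members. Which list lay closest to 0 thus depended on the scaling. Under both scalings the median of the members lay below those of complex III and cytochrome oxidase, a gap that was not tested. COX4 itself is on the list for cytochrome oxidase. Of 5 HAP genes 3 were lower late in the NADH dehydrogenase mutant than in wild type, beside 29.4% of all genes, and 2 in the cox4Δ mutant, beside 26.3%. HAP4, the regulated activating subunit, rose by 2.25 (SE 0.32) in the NADH dehydrogenase mutant, 2.53 (SE 0.32) in the cox4Δ mutant and 3.18 (SE 0.32) in wild type, with 98.4 ± 11.7, 104 ± 22.8 and 213 ± 73.9 rescaled TPM late. HAP3, for a DNA-binding subunit, had 17.6 ± 6.19 rescaled TPM late in the NADH dehydrogenase mutant, 16.0 ± 4.42 in the cox4Δ mutant and 68.0 ± 10.3 in wild type, and HAP5 had 10.6 ± 2.40, 9.07 ± 1.43 and 39.1 ± 8.48. What these levels have to do with those of the members was not tested.

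Across all 72 libraries the genes whose course was most like the mean of the 9 subunit genes, among 4418 nuclear genes that averaged 10 rescaled TPM or more, were FUM1 (Pearson r = 0.95), KGD1 (0.941), KGD2 (0.939), MDH1 (0.938) and QCR2 (0.938). FUM1, KGD1, KGD2 and MDH1 encode enzymes of the tricarboxylic acid cycle and QCR2 a subunit of complex III. The courses most like that of INH1 were those of KGD2 (0.902), MDH1 (0.90), YNK1 (0.889), STP4 (0.887) and ATH1 (0.885). Among the members, ATP3 followed the mean of the other 8 subunit genes most closely (0.975) and TIM11 (0.713) and ATP1 (0.745) least. Successive hours of a strain are not independent, so these values are descriptions.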

How the data were processed

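Per the labels' protocols, filtered cells gave RNA through a hot phenol extraction, and stranded libraries were made after depletion of ribosomal RNA. The authors deposited TPM values for 5803 genes in 72 libraries. Per the submitters' processing notes, bcl2fastq 2.20.0.422, Salmon 0.9.1 and the build sacCer3 were used. Which strand setting and which transcripts Salmon was given is not stated in those notes as used here. No deposited TPM lay below 0.1, with 38 to 134 genes per library at that floor. TPM hold no read numbers, so depth is unknown.

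From these, TPM were rescaled over 5780 nuclear genes (factors of 1.001 to 1.009), and log2(rescaled TPM + 1) was tested for 5721 genes with a mean of at least 1. A fold on this scale understates changes of low genes. All tests were 2-sided and used limma 3.58.1 (R 4.3.3), moderated with a trend and robustly. Strain comparisons had the hour as a block (42 residual degrees of freedom). The block rests on the shared hour of sampling, not on shared cultures. Comparisons between windows of a strain used 9 strain and window means (63) or 15 for the narrower windows (57). Called genes had an adjusted p under 0.05 and a fold of at least 2. The limma steps were tested on simulated data. Alternatives were median-of-ratios scaling, TPM without rescaling, pseudocounts of 0.1 and 10, no filter or a mean of at least 10, limma without trend and robust moderation, no fold minimum, no block, windows without 0 and 18 h, and each hour left out. All 10 members are named, and other genes come from fixed lists. The members, lists and ratios were chosen with earlier results of these data known. Tables and figures used Python 3.11.15, pandas 2.3.3, numpy 2.4.6 and matplotlib 3.10.9.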

Additional observations from a re-analysis of the deposited data

Results flagged for a closer look

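Of 90 groups of one gene, strain and window, 3 held an hour that stood far from the others by Dixon's criterion, which chance alone gives in about 1 of 20 groups. In wild type TIM11 reached 475.9 rescaled TPM at 6 h, with the next highest early hour at 378. In the middle window of wild type ATP1 reached 1871 at 16 h, against 995 at the next highest hour, and ATP2 reached 2466, against 1370.0. The last 2 come from the same library, that of 16 h.

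The late minus early change differed between a mutant and wild type by the interaction term of the limma fit for ATP1 (-1.21) and ATP14 (-1.02) in the NADH dehydrogenase mutant and for TIM11 (-1.09) in the cox4Δ mutant. None of these 3 was called with median-of-ratios scaling, where they stood at -0.43, -0.23 and -0.48.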

How the results depend on the processing

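The counts of called members depended on scaling and on the fold limit. Of the other planned settings, only the shorter windows and the leaving out of single hours moved one by over 1.5 times. With median-of-ratios scaling 0 members were called late in the NADH dehydrogenase and in the cox4Δ mutant against wild type, 0 in both interactions, 8 from early to late and 5 at 9 to 13 h in the NADH dehydrogenase mutant (against 12.8% of all genes called higher), and 2 at 28 to 58 h in the cox4Δ mutant. With no fold minimum, counts for the NADH dehydrogenase mutant against wild type were 10 late, 1 early, 3 in the middle window and 6 in the interaction, and for the cox4Δ mutant 10, 8, 8 and 4. Within strains they were then 8 late against early and 10 at 9 to 13 h in the NADH dehydrogenase mutant, 9 at 9 to 13 h and 2 at 28 to 58 h in the cox4Δ mutant, and 9 and 1 in wild type. Shares of all genes called without the fold minimum are not given, so these counts have no background beside them. Windows without 0 and 18 h left 1 member in the interaction of the NADH dehydrogenase mutant. Without the hour as a replicate block (a paired design by hour) the late count of the NADH dehydrogenase mutant was 3 and that of the cox4Δ mutant 4, and no other count of a strain comparison was moved either.

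Leaving out single hours gave 3 to 5 for the late NADH dehydrogenase mutant, 1 to 3 for its interaction, 1 to 2 for that of the cox4Δ mutant, and 1 to 5 and 1 to 3 at 9 to 13 h in these mutants. With median-of-ratios scaling the sign of some uncalled differences reversed, none of them past the 2-fold limit. The limma adjusted p is given where it was under 0.05. Late in the NADH dehydrogenase mutant these were ATP2 (0.033), ATP4 (0.25), ATP5 (0.27) and ATP16 (0.35, adjusted p = 0.0242). Late in the cox4Δ mutant they were ATP4 (0.07) and ATP16 (0.25). In the interaction of the NADH dehydrogenase mutant they were ATP2 (0.28), ATP3 (0.048), ATP4 (0.64, adjusted p = 0.0237), ATP5 (0.66, adjusted p = 0.00763), ATP7 (0.19) and INH1 (0.49, adjusted p = 0.0287). In that of the cox4Δ mutant they were ATP2 (0.30), ATP3 (0.12), ATP5 (0.45), ATP7 (0.35) and INH1 (0.45, adjusted p = 0.0446). Values near 0 also changed sign with a pseudocount of 10 (ATP4 in the cox4Δ interaction, -0.01), with windows without 0 and 18 h (ATP1 late against early in the NADH dehydrogenase mutant, -0.0024) and without single hours: ATP16 in the interaction of the NADH dehydrogenase mutant (-0.0068 to 0.15), ATP4 (-0.07 to 0.08) and ATP16 (-0.015 to 0.11) in that of the cox4Δ mutant, and TIM11 late against early in the cox4Δ mutant (-0.01 to 0.08). The cause was not tested. Median-of-ratios scaling moved the 10 members of a comparison by about the same amount. Some other genes moved by less, such as AAC3 late in the NADH dehydrogenase mutant (0.64 to 0.91). Each strain has 1 library an hour, no replicate cultures are stated, and depth is unknown.

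Over all 5721 genes, median-of-ratios scaling also moved the balance of higher and lower calls. In the interaction it gave 566 higher and 438 lower in the NADH dehydrogenase mutant (160 and 1917 with rescaled TPM) and 547 and 439 in the cox4Δ mutant (201 and 1492). Late against early it gave 1278 and 1166 (698 and 2288) and 1255 and 1147 (782 and 1961) in these mutants. In the middle window against wild type it gave 105 and 45 (45 and 210) and 51 and 64 (29 and 133), at 28 to 58 h 22 and 72 (68 and 31) and 104 and 235 (563 and 46), and at 9 to 13 h in the NADH dehydrogenase mutant 734 and 644 (577 and 894).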
